A study of Mus musculus with 24 samples.

Results

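Expression of 6 genes of mouse chromosome 14 was examined in the amygdala and hippocampus of mice bred for low or high freezing. The genes are Armh4, Ang, Rpgrip1, Supt16, Il17d and Eef1akmt1. They were chosen because earlier results of these arrays had shown their signals to differ between the lines, so every line difference of theirs below is a description and carries no test. All probe sets whose only annotated gene is 1 of the 6 were taken, including those listed under older names such as Supt16h and N6amt2. This gave 16 probe sets of the 45037 measured, and 6 genes of 18193. Ang had 3 probe sets, Rpgrip1 4, Supt16 2, Il17d 2, Eef1akmt1 4 and Armh4 1.

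The animals were males of line 24, bred for low freezing, and line 25, bred for high freezing. Freezing is the motionless posture of a mouse put back where it had been shocked, and its duration is read as memory of the place. The 24 Affymetrix arrays formed 4 groups of 6, with arrays 1 to 6 of each tissue from the low line and arrays 7 to 12 from the high line. The sources used here do not give the strain of origin, age, generation or any treatment. Each direction of selection is represented by 1 line, so a difference made by selection and one made by drift cannot be told apart. Whether each array holds 1 animal or a pool is not stated, and p-values measure only the spread between these arrays. The precision of each mean rests on the number of arrays. Signals are given as log2(signal + 16), on which a signal of 0 takes the value 4, and each line difference subtracts the low line from the high line on that scale, which understates changes of weak signals.

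Genes close together on a chromosome are inherited together more often than distant ones, and breeding a line from few parents can fix a stretch of chromosome with all the variants on it. The 6 genes have unrelated functions. RPGRIP1 anchors the RPGR protein in the connecting cilium of photoreceptors and is best known from inherited retinal disease. SUPT16 is the large subunit of FACT, the histone chaperone that opens nucleosomes ahead of RNA polymerase. Angiogenin, the product of Ang, is a secreted ribonuclease that promotes vessel growth and cleaves transfer RNA under stress. IL-17D is a cytokine of the interleukin 17 family. EEF1AKMT1 is a methyltransferase that modifies a lysine of the translation elongation factor eEF1A. ARMH4 is a membrane protein about which little is known.

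In the order of the reference gene table (RefSeq, GRCm38.p6), the sequence along the chromosome is Armh4, Ang, Rpgrip1, Supt16, Il17d and Eef1akmt1. Between Armh4 and Ang lie 64 genes, between Ang and Rpgrip1 49, and between Rpgrip1 and Supt16 1. Supt16 and Il17d are separated by 398 genes, and Il17d and Eef1akmt1 are neighbours with none between them. The whole stretch holds 518 reference genes, 191 of them protein coding, and the arrays measured 142 of these with 234 probe sets. RefSeq promoters, from 250 bases before to 50 after a gene's start, were found for 5 of the 6 genes. The promoters of Ang, Rpgrip1 and Supt16 are shown because Ang has its start in common with another gene, and because Rpgrip1 and Supt16 lie almost side by side and were shifted in opposite directions. Capitals mark the CG dinucleotides, and all are written on the strand of the gene (GRCm38.p6).
Ang, chr14:51090827-51091126, plus strand: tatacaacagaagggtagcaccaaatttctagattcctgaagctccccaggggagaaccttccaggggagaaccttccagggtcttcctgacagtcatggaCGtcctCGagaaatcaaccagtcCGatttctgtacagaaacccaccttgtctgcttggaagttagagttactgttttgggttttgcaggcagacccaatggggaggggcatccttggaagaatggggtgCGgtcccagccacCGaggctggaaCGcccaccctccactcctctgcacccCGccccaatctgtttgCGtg
Rpgrip1, chr14:52110653-52110952, plus strand: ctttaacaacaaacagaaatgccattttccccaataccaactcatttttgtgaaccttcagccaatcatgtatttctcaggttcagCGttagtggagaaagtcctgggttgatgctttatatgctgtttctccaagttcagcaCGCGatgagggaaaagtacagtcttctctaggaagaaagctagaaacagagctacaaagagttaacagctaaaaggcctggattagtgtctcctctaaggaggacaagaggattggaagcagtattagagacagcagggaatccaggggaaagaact
Supt16, chr14:52197190-52197489, minus strand: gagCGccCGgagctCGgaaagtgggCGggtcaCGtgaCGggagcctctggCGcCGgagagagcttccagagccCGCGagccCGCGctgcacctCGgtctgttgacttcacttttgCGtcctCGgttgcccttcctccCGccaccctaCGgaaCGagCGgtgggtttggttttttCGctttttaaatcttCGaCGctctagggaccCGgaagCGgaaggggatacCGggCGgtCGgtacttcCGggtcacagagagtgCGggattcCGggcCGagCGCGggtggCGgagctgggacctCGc
The promoter of Rpgrip1 held 3 CG dinucleotides and 42.7% G and C, and 23.3% of the 32817 promoters in the table held fewer CG. That of Supt16 held 35 CG and 65.7% G and C, and 93.0% of promoters held fewer. The Ang window, with 8 CG, was letter for letter 1 of the 2 windows listed for Rnase4, a second ribonuclease gene. The motif CCAAT, searched on both strands, occurred 3 times in the Rpgrip1 window, 2 times in that of Ang and 0 times in that of Supt16, against 37.4% of all promoters with at least 1. The motif TATAAA, also searched on both strands, occurred in the Rpgrip1 window alone of these 3, and in 13.6% of all promoters. On the strand printed for Rpgrip1 it reads as its reverse complement, TTTATA. The palindrome CACGTG occurred in the Supt16 window alone of these 3, and in 7.15% of all promoters. No binding was measured here, and these matches describe letters only.

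Some arrays stood apart. In amygdala, arrays 7 and 8 of the high line had actin signals at the 5′ end of 0.301 and 0.339 of those at the 3′ end, against 0.497 to 0.630 on the other amygdala arrays, a measure of RNA integrity. Hippocampus array 7, of the high line, had the highest median signal, 55.7, of a range from 43.3. In hippocampus the signal of the 18S ribosomal RNA control ran from 5859 to 7093 in the low line and from 3600 to 5800 in the high line, without overlap. In hippocampus all 8 hippocampal markers were lower in the high line, by a median of 0.28. Their differences ran from -0.94 for C1ql2 to -0.01 for Prox1 and Neurod1. Summed levels were 13.05 to 13.18 in the low line and 12.79 to 12.95 in the high line. None of these 8 passed an adjusted p of 0.05 by limma, and 5 were lower at an unadjusted p under 0.05, against 3.28% of all probe sets in this direction. Of 6 meningeal markers 5 were higher in the high line there, by a median of 0.21 over the 6, with summed levels of 10.17 to 10.57 in the low line and 10.60 to 10.92 in the high line. Of these 2 were higher at an unadjusted p under 0.05 by limma, against 5.69% of all probe sets, and 0 at an adjusted p under 0.05. The part of these differences in the results below was not tested.

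The direction of the line difference was mostly common to both tissues but was not common to the genes. In amygdala 11 of the 16 probe sets were higher and 5 lower in the high line, and in hippocampus 12 were higher and 4 lower. The sign was the same in both tissues for 13 of 16. The ranges of the 2 lines were apart at 4 of 16 probe sets in amygdala (3 higher and 1 lower in the high line), against 0.402% of all probe sets. They were apart at 8 of 16 in hippocampus (5 higher and 3 lower), against 0.637%. Nothing is read from these counts, because the genes were chosen for this contrast. The median difference of the 16 was 0.33 in amygdala and 0.42 in hippocampus, against -0.01 and 0.02 over all probe sets. Rpgrip1, Ang, Il17d and Eef1akmt1 were higher in the high line at their brightest probe set in both tissues, Supt16 was lower in both, and Armh4 was lower in hippocampus and overlapped between the lines in amygdala.

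**Figure D1:**
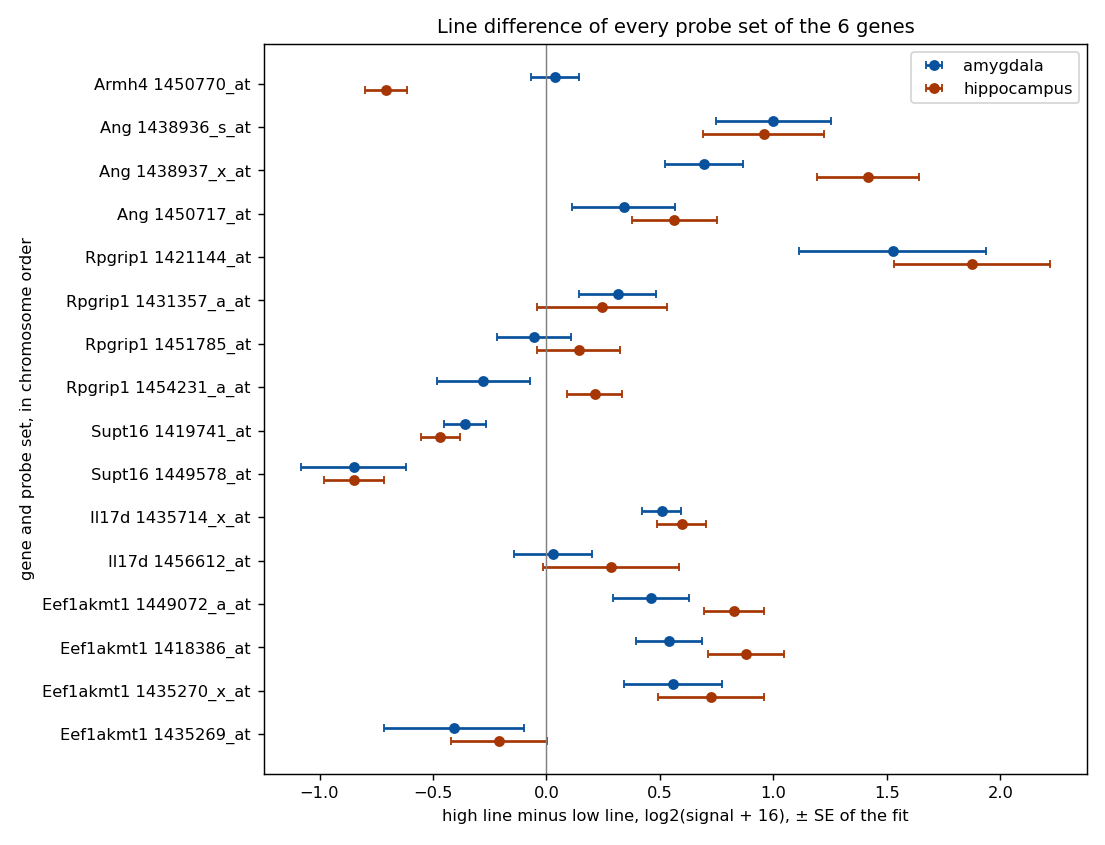
Line difference (high line minus low line, log2(signal + 16)) of the 16 probe sets in chromosome order, with bars for the SE of the limma fit, in amygdala (blue) and hippocampus (brown). The longest shifts to the right are Rpgrip1 1421144_at (1.53 and 1.88) and Ang 1438937_x_at in hippocampus (1.42), and both Supt16 probe sets lie to the left of 0 in both tissues.

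On the log2(signal + 16) scale Rpgrip1 had the widest shift of the 6 genes, carried by 1 probe set, 1421144_at. In amygdala the 6 low line arrays read 10.03, 9.29, 9.64, 8.52, 9.77 and 6.98, and the 6 high line arrays 10.39, 10.56, 10.62, 10.58, 10.60 and 10.65. Every high line array lay above every low line array, and the high line arrays lay close together while the low line arrays were spread from 6.98 to 10.03. In hippocampus the low line arrays read 8.69, 8.81, 6.99, 6.92, 8.95 and 7.95, and the high line arrays 9.70, 10.02, 10.09, 10.03, 9.86 and 9.88. The groups again did not overlap. The low line mean was 9.04 ± 1.13 (SD, n = 6) against 10.57 ± 0.09 in amygdala, a difference of 1.53 ± 0.41 (SE). In hippocampus it was 8.05 ± 0.92 against 9.93 ± 0.14, a difference of 1.88 ± 0.34 (SE). As linear signals the means were 624 and 1502 in amygdala and 293 and 963 in hippocampus. As ratios of these linear means, high line over low line, Rpgrip1 had 2.41 and 3.29, and Ang exceeded it with 2.46 at 1438936_s_at in amygdala and 4.47 at 1438937_x_at in hippocampus. On the log2 scale, of all 45037 probe sets 1 had a larger positive difference in amygdala and 0 had one in hippocampus.

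Rpgrip1 was also more spread within the low line than within the high line. The SD of the low line was 12.6 times that of the high line in amygdala and 6.38 times in hippocampus. An SD at least as large was found for 0.0488% of probe sets among the amygdala arrays of the low line and for 0.109% among its hippocampus arrays. These values depend on single arrays. Without amygdala array 6, which read 6.98, the low line SD fell to 0.58, the ratio to 6.49, and 3.34% of probe sets had an SD at least as large. Without amygdala array 7, the lowest of the high line, the ratio was 33.2. In hippocampus the ratio without 1 array lay between 5.68 and 9.08, and the share of probe sets was 0.275% without array 3 and 0.360% without array 4. Leaving out 1 array at a time kept the difference between 1.11 and 1.72 in amygdala and between 1.65 and 2.06 in hippocampus. The other 3 Rpgrip1 probe sets read close to the value of no signal, with means over all arrays of 4.59 to 4.73, and their differences lay between -0.28 and 0.31. They were overlapping between the lines in both tissues. The shift thus rests on 1421144_at. Genes of photoreceptors, the cells for which Rpgrip1 is best known, were looked at beside it. Pde6b, a phosphodiesterase subunit of rods, read 4.24 in the low line in both tissues, Rpgr was at 8.14 and 7.56 there, and 0 of the 4 measured markers was at an unadjusted p under 0.05 in either tissue by limma. The 6 measured genes for partners of RPGRIP1 at the cilium also had 0 at that threshold. Of these the lowest p belonged to Rab8a, a small GTPase of membrane traffic, with 0.03 ± 0.08 (SE) in amygdala and 0.08 ± 0.06 (SE) in hippocampus.

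**Figure D2:**
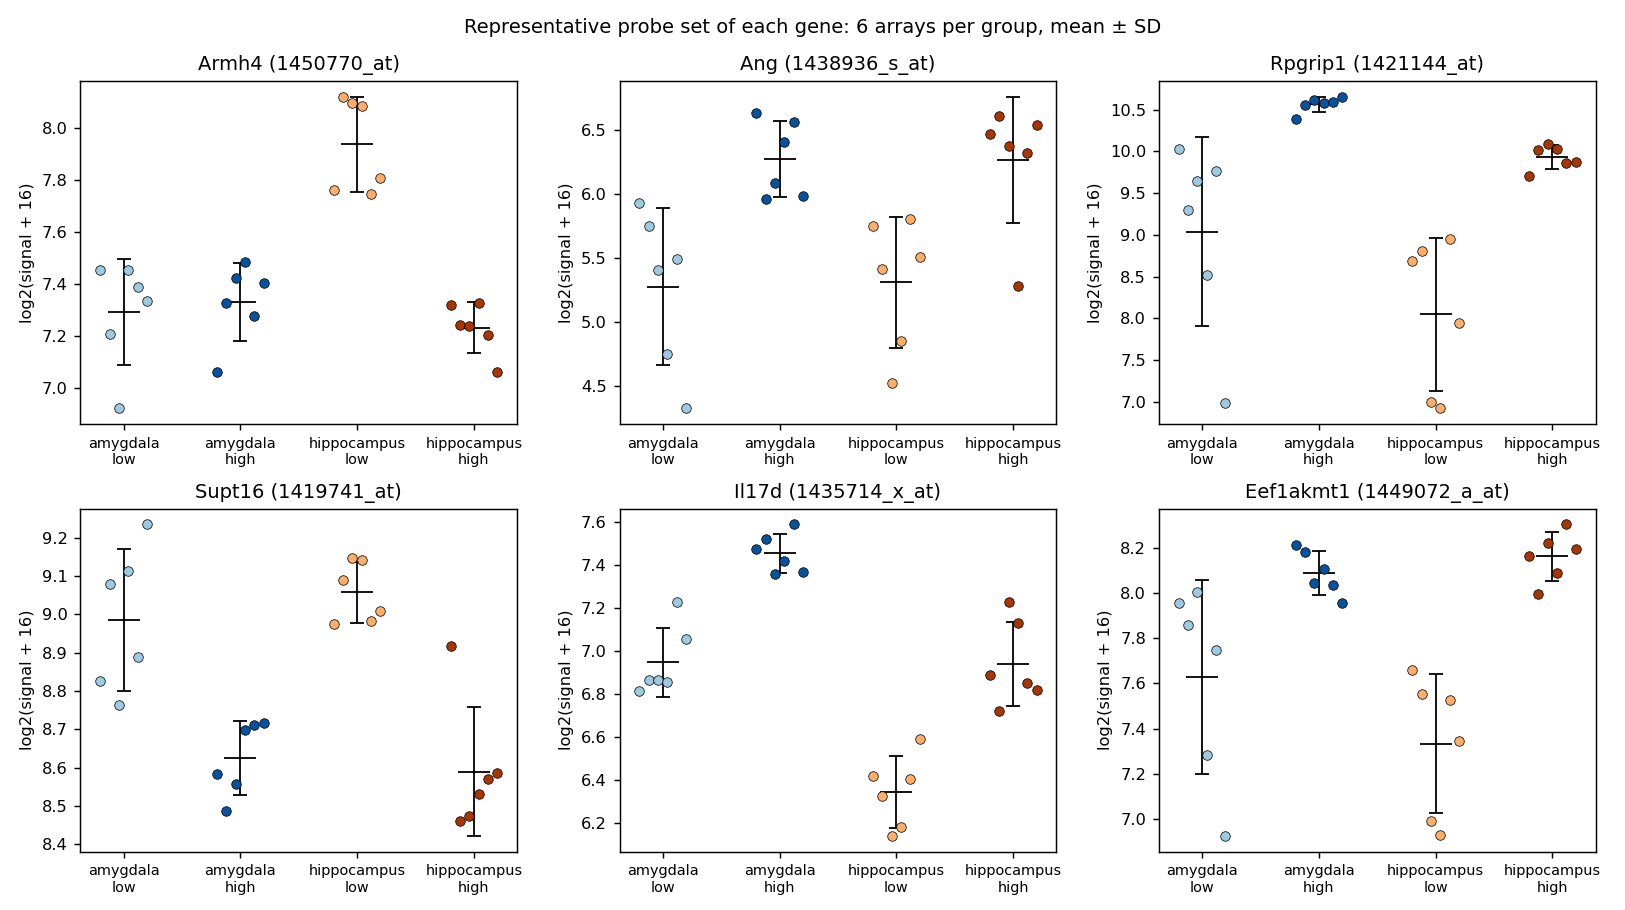
Signal, as log2(signal + 16), of the brightest probe set of each gene on each array (points, in order of array number), with the mean and SD of 6 arrays. Rpgrip1 is tight in the high line and spread in the low line, and Armh4 differs in hippocampus with overlap in amygdala.

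Supt16 was lower in the high line at both of its probe sets. For 1419741_at the low line ran from 8.76 to 9.23 with a median of 8.98 in amygdala, and the high line from 8.49 to 8.72 with a median of 8.64. In hippocampus the low line ran from 8.97 to 9.15 with a median of 9.05, and the high line from 8.46 to 8.92 with a median of 8.55. The lines did not overlap in either tissue. The differences were -0.36 ± 0.09 (SE) and -0.47 ± 0.09 (SE). Hippocampus array 7 read 8.92, close to the low line, where the other 5 high line arrays lay between 8.46 and 8.59. The dimmer probe set, 1449578_at, showed a larger gap on this scale, from 6.82 ± 0.51 to 5.97 ± 0.36 (SD, n = 6) in amygdala and from 7.11 ± 0.26 to 6.26 ± 0.21 in hippocampus. Its differences were -0.85 ± 0.23 (SE) and -0.85 ± 0.13 (SE), with overlap in amygdala and none in hippocampus. Both probe sets thus fell on the same side, by amounts that differed. Among 7 measured genes for other histone chaperones and elongation factors, 0 was at an unadjusted p under 0.05 in either tissue by limma. Asf1a, a chaperone of new histones, differed by -0.11 ± 0.10 (SE) in amygdala and 0.11 ± 0.09 (SE) in hippocampus.

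Ang had weak signals that were higher in the high line at all 3 probe sets in both tissues. For 1438936_s_at, whose suffix marks probes that can read several related transcripts, the low line ran from 4.32 to 5.93 with a median of 5.45 in amygdala and the high line from 5.97 to 6.64 with a median of 6.25. The groups did not overlap, by a narrow margin. In hippocampus the low line ran from 4.53 to 5.81 with a median of 5.46 and the high line from 5.28 to 6.62 with a median of 6.43. There 5 of the 6 high line arrays lay above every low line array and array 10 did not. The differences were 1.00 ± 0.25 (SE) and 0.96 ± 0.27 (SE), and that in amygdala was 1.56 with a pseudocount of 1 in place of 16 and 0.51 with 64. For 1438937_x_at, whose probes may also bind unrelated transcripts, the means were 5.45 ± 0.43 and 6.14 ± 0.16 (SD, n = 6) in amygdala, and 4.73 ± 0.58 and 6.14 ± 0.15 in hippocampus. Its difference was 0.69 ± 0.17 (SE) in amygdala, with overlap, and 1.42 ± 0.23 (SE) in hippocampus, without overlap. For 1450717_at the differences were 0.34 ± 0.22 (SE) and 0.56 ± 0.19 (SE), with overlap in both tissues. The hippocampal difference of 1438937_x_at was 2.72 with a pseudocount of 1 and 0.65 with 64, so the sizes at these low signals are set largely by the scale.

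Rnase4, which has the promoter window printed above in common with Ang, was measured by a single probe set. It read 7.57 in the low line and 7.72 in the high line in amygdala, a difference of 0.15 ± 0.09 (SE). In hippocampus it read 7.72 and 7.96, a difference of 0.23 ± 0.09 (SE) with an adjusted p of 0.50 by limma. Of 10 measured genes of the ribonuclease A family, its inhibitor Rnh1 and the angiogenin receptor Plxnb2, 6 were positive and 4 negative in amygdala. Except for Rnh1 and Plxnb2 they lie near Ang within the stretch, and are counted again below among its other genes. All 10 were positive in hippocampus, with a median of 0.25 against 0.02 over all probe sets, and 3 of them were at an unadjusted p under 0.05 (Ang4, Rnase2b and Rnase4), against 5.69% of all probe sets in this direction. Ang4 and Rnase2b read 4.28 and 4.31 in the low line, close to no signal, and differed by 0.43 ± 0.14 (SE) and 0.54 ± 0.18 (SE). Ang2, Rnase2a and Rnase6 were also close to no signal in the low line in hippocampus, at 4.43, 4.33 and 4.48. In amygdala 2 were higher at that threshold, against 2.86% of all probe sets in this direction, Plxnb2 with 0.58 ± 0.12 (SE) and Rnase6 with 0.50 ± 0.18 (SE). Rnase6 read 4.58 and 5.08 in the low and high lines in amygdala, also close to no signal. None of the 10 passed an adjusted p of 0.05 in either tissue by limma.

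Il17d was higher in the high line at 1435714_x_at, whose probes may also bind unrelated transcripts. In amygdala the low line ran from 6.81 to 7.23 with a median of 6.86, and the high line from 7.35 to 7.59 with a median of 7.45. In hippocampus the low line ran from 6.14 to 6.59 with a median of 6.36, and the high line from 6.72 to 7.23 with a median of 6.87. The lines did not overlap in either tissue, and the differences were 0.51 ± 0.09 (SE) and 0.60 ± 0.11 (SE). The second probe set, 1456612_at, read near no signal, with a mean of 4.83, and did not show the shift. Its differences were 0.03 ± 0.17 (SE) and 0.28 ± 0.30 (SE), and without hippocampus array 7, which read 6.49, the second was -0.01. Of the 10 other measured genes of the interleukin 17 family and its receptors, 6 were positive and 4 negative in each tissue. In hippocampus 3 were at an unadjusted p under 0.05 by limma, 2 higher and 1 lower, against 8.97% of all probe sets, and in amygdala 0, against 6.54%. These were the receptor Il17rb with 0.69 ± 0.20 (SE), Cd93 with 0.41 ± 0.13 (SE) and the cytokine Il17b with -0.62 ± 0.20 (SE). Their adjusted p values were 0.383 to 0.419. Of the genes in this list, Il17rb and Il17rd lie on chromosome 14 outside the stretch and Il25 lies within it. They are counted again below among the other genes of the chromosome.

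Eef1akmt1 was higher in the high line at 3 of its 4 probe sets. For 1449072_a_at, whose suffix marks probes for alternative transcripts of 1 gene, the low line ran from 6.93 to 8.00 with a median of 7.80 in amygdala and the high line from 7.95 to 8.21 with a median of 8.07. In hippocampus the low line ran from 6.93 to 7.66 with a median of 7.43 and the high line from 8.00 to 8.30 with a median of 8.18. The groups overlapped in amygdala and not in hippocampus, with differences of 0.46 ± 0.17 (SE) and 0.83 ± 0.13 (SE). As for Rpgrip1, the low line was the more spread, with an SD 4.43 times that of the high line in amygdala (2.96 without array 6) and 2.86 times in hippocampus. For 1418386_at the differences were 0.54 ± 0.14 (SE) and 0.88 ± 0.17 (SE), again without overlap in hippocampus. For 1435270_x_at they were 0.56 ± 0.21 (SE) and 0.72 ± 0.23 (SE), with overlap in both tissues. The fourth, 1435269_at, had the opposite sign, with -0.41 ± 0.31 (SE) and -0.21 ± 0.21 (SE) and overlap in both tissues. Its high line arrays in amygdala ran from 5.09 to 7.14. At this probe set the low line was the less spread, with an SD 0.46 times that of the high line in amygdala and 0.68 times in hippocampus. Of 4 measured genes for eEF1A and other methyltransferases that act on it, 0 was at an unadjusted p under 0.05 in either tissue by limma. Eef1a2, the form of the elongation factor in neurons and muscle, differed by 0.04 ± 0.09 (SE) and 0.06 ± 0.07 (SE).

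Armh4 differed in 1 tissue. In hippocampus the low line ran from 7.75 to 8.12 with a median of 7.95, and the high line from 7.06 to 7.32 with a median of 7.24, without overlap. The difference was -0.71 ± 0.09 (SE). In amygdala the low line ran from 6.92 to 7.45 and the high line from 7.06 to 7.48, almost the same range, with a difference of 0.04 ± 0.11 (SE). The line difference in hippocampus was lower than that in amygdala by 0.74 ± 0.14 (SE), given without a test because Armh4 was chosen on its line differences. Of the 4 groups only the low line hippocampus arrays stood apart, above those of the other 3. Of 4 genes of signalling around ARMH4, Stat3 and Mtor among them, 0 was at an unadjusted p under 0.05 in either tissue by limma.

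The contrast between tissues was not used in choosing the genes and was tested. Amygdala and hippocampus differed at 3 of 16 probe sets at an adjusted p under 0.05 by limma over all probe sets, against 25.8% of all probe sets. Il17d 1435714_x_at was higher in amygdala by 0.56 ± 0.07 (SE), with an adjusted p of 6.82e-07, and by 0.60 and 0.52 in the low and high lines taken alone. The other Il17d probe set, 1456612_at, which reads near no signal, differed by -0.08 ± 0.18 (SE). Rpgrip1 1421144_at was higher in amygdala by 0.81 ± 0.28 (SE), with an adjusted p of 0.0358. The adjusted p was 0.0501 with a pseudocount of 1, and 0.0830 without amygdala arrays 7 and 8 and hippocampus array 7. In the low and high lines taken alone Rpgrip1 1421144_at was higher in amygdala by 0.99 and 0.64. Armh4 was lower in amygdala by 0.27 ± 0.07 (SE), with an adjusted p of 0.00454, which averages a difference of -0.65 in the low line and 0.10 in the high line. Supt16 differed by -0.02 ± 0.06 (SE) at 1419741_at and Eef1akmt1 by 0.11 ± 0.11 (SE) at 1449072_a_at, with adjusted p of 0.864 and 0.505. The 3 Ang probe sets differed by -0.01, 0.36 and -0.0025, with adjusted p of 0.971, 0.0752 and 0.993.

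Whether the genes moved together between arrays of the same line was asked within each group of 6 arrays, where the difference between lines plays no part. Each gene was represented by its brightest probe set, which gave 15 pairs in 4 groups, or 60 relations, each tested by an exact two-sided permutation of the 6 arrays with 0.00139 as the smallest possible p. Pearson's r had an unadjusted p under 0.05 in 13 of 60 relations and Spearman's rho in 3. None passed after Benjamini-Hochberg adjustment over the 60, where the lowest was 0.115 for r and 0.333 for rho. Each r was also set against those of all probe sets with the pair's first gene in chromosome order. For the 13, 0.0688% to 2.83% of probe sets had an r at least as far from 0 with the same sign. Of the 13, 11 were in the low line and 2 in the high line, of 30 relations each. The difference between the lines in these counts was not tested, and the low line is also the one with the wider spread of Rpgrip1 and Eef1akmt1.

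By Pearson's r, though not by Spearman's rho, Rpgrip1 and Eef1akmt1 had the closest relation of the low line in both tissues. In amygdala r was 0.949 (exact permutation p = 0.0153) and rho 0.714 (exact p = 0.136). In hippocampus r was 0.970 (exact permutation p = 0.0139) and rho 0.771 (exact p = 0.103). Array 6 in amygdala, at 6.98 and 6.93, and arrays 3 and 4 in hippocampus, at 6.99 and 6.92 for Rpgrip1 and 6.99 and 6.93 for Eef1akmt1, were the lowest of their groups for both genes. Without the 2 arrays farthest from the median of Rpgrip1, r was 0.164 in amygdala and 0.773 in hippocampus, so the amygdala relation rests on those arrays. In the high line r was -0.840 (exact permutation p = 0.0125) in amygdala, with rho of -0.943 (exact p = 0.0167), and -0.316 (exact p = 0.553) in hippocampus. Under median centring the amygdala value was -0.785 (exact p = 0.05), no longer under the threshold. Both high line values of r were thus negative, but that in hippocampus was not told apart from 0. In amygdala of the high line Rpgrip1 varied only from 10.39 to 10.65. The difference in r between the lines was not tested.

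**Figure D3:**
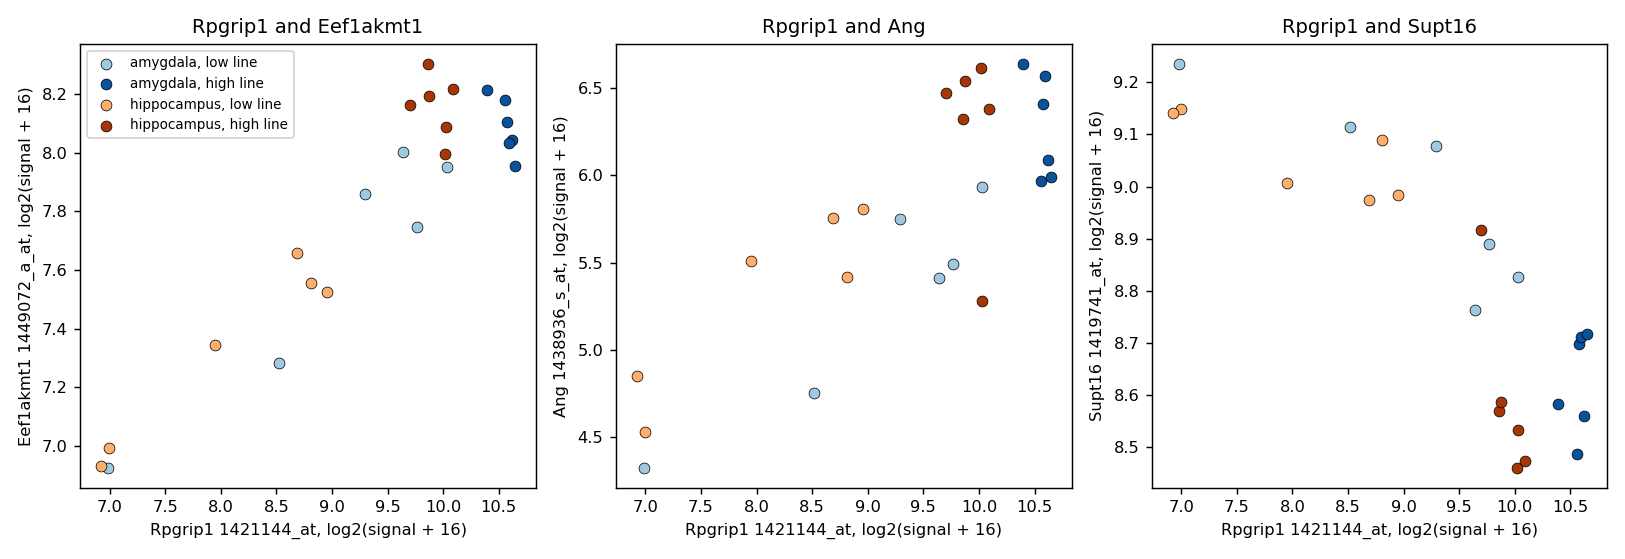
Signal of Eef1akmt1, Ang and Supt16 against Rpgrip1 on each of the 24 arrays, all as log2(signal + 16), with 1 colour for each line and tissue. The low line arrays (pale) run along the Rpgrip1 axis from 6.92 to 10.03, while the high line arrays (dark) lie between 9.70 and 10.65.

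Ang followed the same arrays. In the low line its r with Rpgrip1 was 0.926 (exact permutation p = 0.0139) in amygdala and 0.908 (exact p = 0.0264) in hippocampus, and with Eef1akmt1 0.941 (exact p = 0.0153) and 0.911 (exact p = 0.0250). Without the 2 arrays farthest from the median of Ang these fell to 0.250, 0.424, 0.131 and 0.431. Supt16 ran the other way. In the low line its r with Rpgrip1 was -0.873 (exact permutation p = 0.00694) in amygdala and -0.777 (exact p = 0.115) in hippocampus. Without the 2 arrays farthest from the median of Rpgrip1 these were -0.719 and 0.080. The r of Supt16 with Eef1akmt1 was -0.865 (exact p = 0.0181) and -0.821 (exact p = 0.0542). With Ang it was -0.936 (exact p = 0.00278) in hippocampus, with rho of -0.943 (exact p = 0.0167), and -0.868 without the 2 arrays farthest from the median of Ang. Under median centring that relation was -0.777 (exact p = 0.0806) and no longer under 0.05. In the high line Supt16 and Rpgrip1 had r of 0.354 in amygdala (exact p = 0.569) and -0.905 in hippocampus (exact p = 0.0111), which became -0.747 (exact p = 0.0889) under median centring.

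Il17d and Armh4 took part less clearly. Il17d and its neighbour Eef1akmt1 had r of -0.296 and 0.668 in the low line, and 0.389 and 0.209 in the high line, in amygdala and hippocampus, with exact permutation p of 0.154 to 0.696. Il17d and Supt16 had r of -0.848 (exact p = 0.0264) in the low line in hippocampus, and -0.430 without the 2 arrays farthest from the median of Supt16. Armh4 and Supt16 had r of 0.948 (exact p = 0.0472) there, and 0.873 without the 2 arrays farthest from the median of Armh4. Under quantile normalization the relation of Il17d and Supt16 was -0.732 (exact p = 0.0972). The 15 pairs of a group are built from 6 genes and 6 arrays and are not independent of each other.

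**Figure D4:**
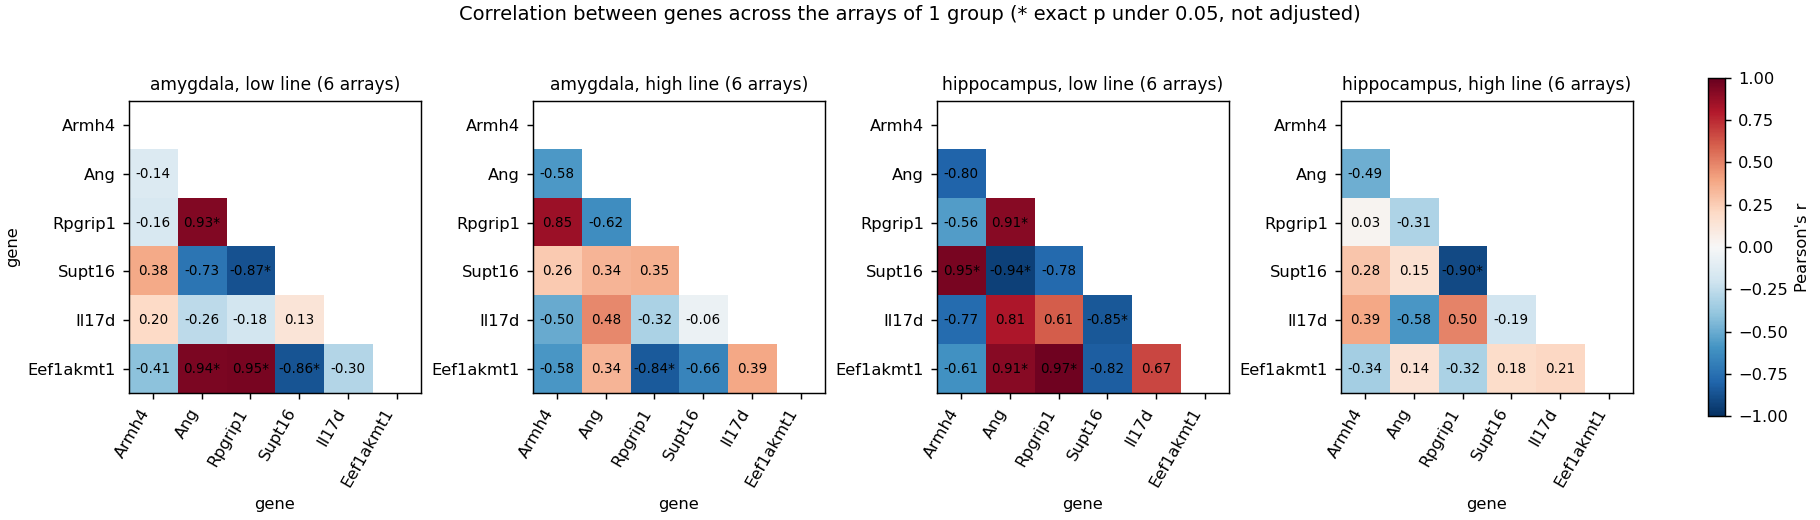
Pearson's r between the brightest probe sets of the 6 genes over the 6 arrays of each group (rows and columns are genes, colour is r from -1 to 1), with a star where the exact permutation p was under 0.05 before adjustment. The 11 stars of the low line link Ang, Rpgrip1, Supt16 and Eef1akmt1 in amygdala and involve all 6 genes in hippocampus, and 2 stars fall in the high line.

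Probe sets of the same gene differed in how far they moved together. Over 17 pairs in 4 groups, or 68 relations, 6 had an unadjusted p under 0.05 by the exact permutation test of r and 0 after adjustment, where the lowest was 0.142. All 6 were in the low line. For Eef1akmt1, 1449072_a_at and 1435270_x_at had r of 0.952 and 0.918 in the low line in amygdala and hippocampus (exact p = 0.00417 and 0.0181), and -0.751 and -0.019 in the high line (exact p = 0.0639 and 0.986). The fourth Eef1akmt1 probe set, of opposite line difference, had negative r with the other 3 in the low line, from -0.666 to -0.162. For Supt16 the 2 probe sets had r of 0.755, 0.410, 0.679 and -0.344 in the low line and high line groups, amygdala before hippocampus (exact p = 0.0639, 0.349, 0.135 and 0.474). For Ang, 1438936_s_at and 1438937_x_at had r of 0.894 (exact permutation p = 0.0250) in the low line in amygdala.

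Arrays of the same number in the 2 tissues did not resemble each other. Over all probe sets their deviations from the group means had r between -0.055 and 0.045, so the numbers gave no sign of pairing. For Rpgrip1 1421144_at the r between same-numbered arrays was 0.316 in the low line (exact permutation p = 0.586) and 0.661 in the high line (exact p = 0.156). The low arrays were number 6 in amygdala and numbers 3 and 4 in hippocampus. Of 32 such relations, over 16 probe sets and 2 lines, 1 passed an adjusted p of 0.05 by r and 2 by rho. These were Eef1akmt1 1435270_x_at in the high line, with r of -0.966 (adjusted exact permutation p = 0.0444) and rho of -1, and Rpgrip1 1431357_a_at in the high line, with rho of -1 (adjusted exact p = 0.0444) and r of -0.884 (adjusted exact p = 0.167). Both were negative and the second probe set reads near no signal.

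The other genes of the stretch from Armh4 to Eef1akmt1 were tested for line differences. The stretch was bounded by genes chosen for their line differences on these same arrays, so its shares below are not independent of that choice. In amygdala 24 of 218 probe sets were at an unadjusted p under 0.05 by limma (11.0%), against 6.54% of all probe sets and 6.11% of the rest of chromosome 14. Of these, 13 were higher and 11 lower in the high line, where 2.86% and 3.68% of all probe sets were. In hippocampus 42 of 218 were (19.3%), against 8.97% of all probe sets and 11.1% of the rest of the chromosome. There 25 were higher and 17 lower, where 5.69% and 3.28% of all probe sets were. At an adjusted p under 0.05 stood 0 of the 218 in either tissue, against 0.00222% of all probe sets in amygdala and 0.0222% in hippocampus, and the lowest adjusted p was 0.331 and 0.0795. In both tissues with 1 direction 9 of 218 were at that unadjusted threshold (4.13%), against 0.762% of all probe sets and 18 of 982 (1.83%) in the rest of the chromosome. Without amygdala arrays 7 and 8 and hippocampus array 7 the 9 became 2, and without hippocampus array 8 they became 5.

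These 9 probe sets belong to 8 genes, given as values that did not pass adjustment. The predicted gene Gm26782 was higher in the high line by 0.73 ± 0.15 (SE) in amygdala and 0.98 ± 0.21 (SE) in hippocampus. Ppp1r3e, a glycogen-targeting subunit of protein phosphatase 1, was higher at both of its probe sets, by 0.59 ± 0.21 and 0.81 ± 0.13 (SE) at the brighter and by 0.49 ± 0.17 and 0.52 ± 0.21 at the dimmer. Zmym5, a zinc finger gene, had 0.49 ± 0.16 and 0.85 ± 0.20 (SE), and Ngdn, for a ribosome assembly protein, 0.49 ± 0.17 and 0.53 ± 0.14 (SE). Mmp14, a membrane-bound matrix metalloproteinase, had 0.37 ± 0.13 and 0.29 ± 0.12 (SE), and Myh7, a slow myosin heavy chain, 0.24 ± 0.11 and 0.31 ± 0.13 (SE). Dad1, a subunit of the enzyme that attaches glycans to proteins, had -0.24 ± 0.10 and -0.24 ± 0.10 (SE). Rab2b, a small GTPase of the Golgi, had -0.17 ± 0.07 and -0.38 ± 0.07 (SE). Other probe sets of these genes often did not follow. The second for Ngdn differed by 0.11 and -0.08, and the brightest for Zmym5 by -0.08 and -0.02. Another Zmym5 probe set, 1442007_at, differed by 0.24 ± 0.10 (SE) in amygdala, with an unadjusted p of 0.0350 by limma, and by 0.06 ± 0.07 (SE) in hippocampus.

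Arrays low for Rpgrip1 were low for several of the same genes. Each probe set was compared with Rpgrip1 1421144_at over 24 arrays after the mean of each group had been taken away. These r values describe the arrays and have no test, and they weigh the low line most, where Rpgrip1 varied most. The 2 genes most like Rpgrip1 among all named genes were Eef1akmt1 (r = 0.899) and Pnma2 (0.884), a gene of the paraneoplastic Ma antigen family that lies 625 genes beyond Rpgrip1 on chromosome 14, outside the stretch. At an absolute r of 0.7, a limit chosen after the values were seen, stood 9 of 233 probe sets of the stretch (3.86%), 2 of 982 of the rest of the chromosome (0.204%) and 14 of the 43821 others (0.0319%). Those of the stretch were 3 of Eef1akmt1, 2 of Ang and 1 each of Gm26782, Ppp1r3e, Ngdn and Zmym5. Eef1akmt1 and Ang are among the 6 genes whose choice set the stretch. The share of the stretch thus includes genes chosen beforehand, unlike the counts of line differences above. Without 1 array at a time the 3 counts ran from 5 to 10, from 2 to 7 and from 14 to 30. The count of the stretch was 5 and that outside chromosome 14 was 30 without hippocampus array 3. The latter rose by more than 1.5 times without any 1 of 12 arrays, namely amygdala arrays 4, 6, 7, 9 and 11 and hippocampus arrays 1, 3, 4, 5, 7, 8 and 11. Of the 50 probe sets nearest to Rpgrip1, 15 were of chromosome 14, which holds 2.70% of all probe sets. These 15 again include probe sets of Eef1akmt1 and Ang.

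**Figure D5:**
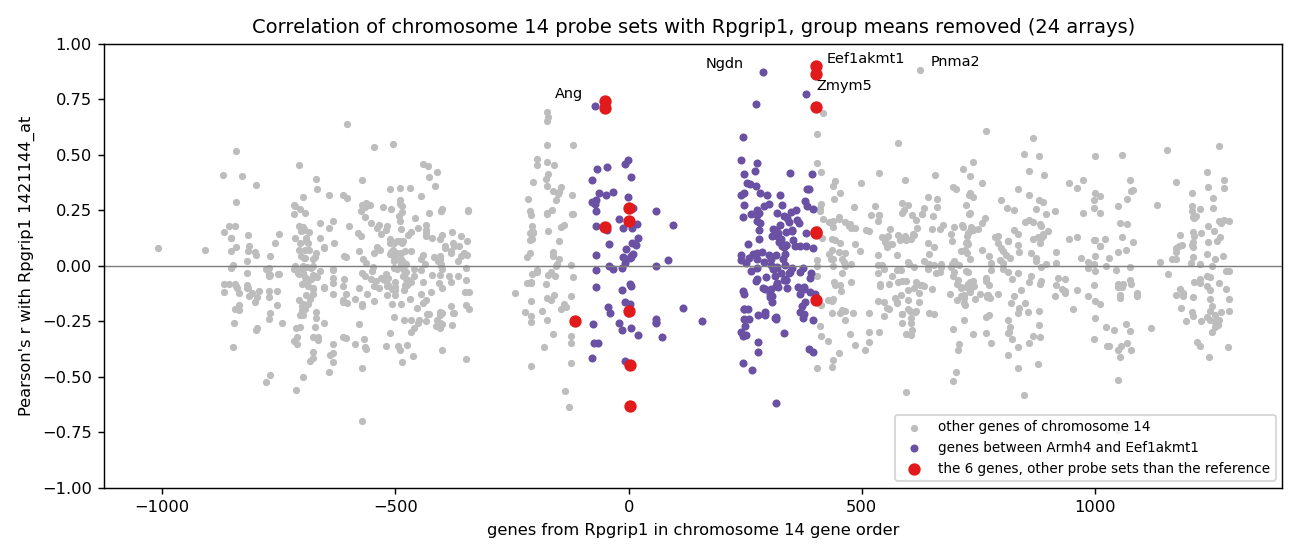
Pearson's r of each chromosome 14 probe set with Rpgrip1 1421144_at over 24 arrays with group means removed, against its place in the gene order counted from Rpgrip1. Most lie around 0, and Eef1akmt1 (0.899), Pnma2 (0.884), Ngdn (0.875) and Zmym5 (0.775) stand out above.

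Among the other genes, only Eef1akmt1 had its 2 most alike named genes on chromosome 14. Of the 50 probe sets nearest to Eef1akmt1 12 were of chromosome 14, against 5 for Ang, 3 for Il17d, and 1 each for Armh4 and Supt16. Chromosome 14 holds 2.70% of all probe sets, and the 12 include Rpgrip1, 1 of the 6 genes chosen beforehand. The named genes most like Eef1akmt1 were Rpgrip1 (0.899) and Ngdn (0.842), and those most like Ang were Slc38a10 (0.832), an amino acid transporter, and Cpeb3 (0.817), a regulator of translation at synapses. For Armh4 they were 4930423M02Rik (0.783) and Nos1ap (0.777), an adaptor of neuronal nitric oxide synthase. For Supt16 they were Ttll4 (0.80) and Ubl4b (0.770), and for Il17d Tra2b (0.788) and Slc17a2 (0.769). All are Pearson's r over 24 arrays with group means removed, and with so many probe sets compared the highest r values were picked for being high.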

How the data were processed

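RNA of amygdala and hippocampus was hybridised to 24 Affymetrix arrays, 6 per line and tissue. The deposited values are linear intensities, 1 per probe set, and the authors had scaled each array to a mean of 150 after leaving out the top and bottom 2%, as the values themselves show; the signal algorithm is not given in the sources used here. No value column was left unmapped (0). From 45101 probe sets 64 controls were left out. Descriptions of the samples gave the groups, and titles gave the array numbers.

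Signals were used as log2(value + 16) and fitted over all 45037 probe sets with limma 3.58.1 (lmFit, eBayes) in R 4.3.3, per tissue for the lines and over 24 arrays for the tissues, with Benjamini-Hochberg adjusted p-values. Correlations used exact permutation (Python 3.11.15, numpy 2.4.6). Fits and correlations were tested on simulated data. Names came from the platform annotation through the Entrez identifier. The stretch holds every reference gene from the first to the last of the 6 in gene order. The brightest probe set by mean represents a gene. The members, the stretch that they bound and the lists were chosen with earlier results of these data known. Named genes are the 6, up to 8 other genes of the stretch at an unadjusted p under 0.05 with 1 sign in both tissues, up to 2 per list of related genes, and the 2 most alike. Genes named beyond that rule, namely Rnase4 with its shared promoter, the third interleukin and ribonuclease genes, and the further genes correlated with Rpgrip1, were chosen after their values were seen. Alternatives were other pseudocounts, quantile normalization, median centring, a filter on the lowest 40% of probe sets, a fit of all arrays, a replicate block and arrays left out. Same-numbered arrays did not correlate (consensus correlation 0.00672), so the main fit has no block.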

Additional observations from a re-analysis of the deposited data

Results flagged for a closer look

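Of 64 groups of 6 arrays, 1 for each of the 16 probe sets in each line and tissue, 4 held an array far from the rest by Dixon's ratio at the 95% critical value, where chance flags about 1 in 20. Ang 1438936_s_at read 5.28 on array 10 of the high line in hippocampus, against 6.32 to 6.62 on the other 5 arrays. Rpgrip1 1421144_at read 10.39 on array 7 of the high line in amygdala, against 10.56 to 10.65. Supt16 1419741_at read 8.92 on array 7 of the high line in hippocampus, against 8.46 to 8.59. Il17d 1456612_at read 6.49 on the same hippocampus array 7, against 4.35 to 5.11. Hippocampus array 7 is the array with the highest median signal, and amygdala array 7 is 1 of the 2 with a low actin ratio.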

How the results depend on the processing

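The 32 line differences kept their sign under both other pseudocounts, quantile normalization, median centring and the fit of all arrays. Leaving arrays out turned 3 small amygdala differences (Armh4, Rpgrip1 1451785_at and Il17d 1456612_at) and 1 in hippocampus, that of Il17d 1456612_at. Without 1 array at a time, the probe sets of the stretch at an unadjusted p under 0.05 numbered 20 to 28 in amygdala and 31 to 45 in hippocampus, those in both tissues 5 to 11, and probe sets of the 6 genes without overlap 4 to 6 and 8 to 9. Probe sets of chromosome 14 at an absolute r of 0.7 with Rpgrip1 numbered 8 to 14, relations at an unadjusted p under 0.05 in the low line 6 to 13, and in the high line 1 to 3; each count without 1 array rests on 5 arrays in that group. The counts in both tissues, of r with Rpgrip1 and of relations without 1 array, and the SD ratios without 1 array, were added after the data were seen. Under median centring the high line had 1 such relation, between another pair than the 2 named in the text. Those in both tissues were 2 without amygdala arrays 7 and 8 and hippocampus array 7; the cause was not tested. With array number as a replicate block the probe sets called between tissues were again 3.

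Tissue differences near 0 changed sign. Ang 1438936_s_at was 0.0010 under median centring and 0.00090 without those 3 arrays. Ang 1450717_at was 0.033 under quantile normalization, 0.012 under median centring and 0.060 without the 3 arrays, where Supt16 1419741_at was 0.037 and Il17d 1456612_at 0.12. Ang 1438937_x_at passed, with an adjusted p of 0.0486, once the lowest 40% of probe sets were left out. The probe sets of Ang, 3 of Rpgrip1 and 1 of Il17d have weak signals, which limits what they can show.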

Other observations

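Pnma2, Ngdn and Zmym5, named in the text for their likeness to Rpgrip1, each had 1 probe set that followed the arrays low for Rpgrip1 and others with smaller line differences. Pnma2 1437018_at ran from 5.68 to 8.48 in the low line in amygdala (7.62 ± 1.04, SD, n = 6) and from 8.18 to 8.79 in the high line, a difference of 0.96 ± 0.39 (SE). In hippocampus it ran from 5.53 to 7.63 and from 8.06 to 8.33, a difference of 1.44 ± 0.35 (SE) with an adjusted p of 0.263 by limma. Its second probe set, 1435618_at, differed by 0.05 ± 0.08 and 0.03 ± 0.08 (SE). Ngdn 1438318_x_at had r with Rpgrip1 of 0.954 and 0.901 in the low line, and -0.840 and 0.668 in the high line, in amygdala and hippocampus. Zmym5 1445543_at had 0.973 and 0.912 in the low line, and -0.157 and -0.725 in the high line. These are descriptions over 6 arrays each, with no test, of genes picked for their r. Mycbp2, a ubiquitin ligase of axon growth and the remaining probe set of chromosome 14 past the limit, had r of -0.741 over 24 arrays.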
